A study of Arabidopsis thaliana with 10 samples.

Results

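Aquaporins are followed here through 27 of the 22746 probe sets, controls aside, of a whole-genome *Arabidopsis thaliana* array. They are every probe set whose deposited description contains the word aquaporin, the words water channel, or the protein name plasma membrane, tonoplast or major intrinsic protein. Of these, 9 could be given a gene name, and the other 18 are called by their probe set identifier with the words of their description. The descriptions place 5 in the PIP1 group, 2 in the PIP2 group, 3 among plasma membrane proteins with no group stated, 8 among tonoplast proteins, 3 near nodulin 26 and 6 in no group.

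Aquaporins are channel proteins that let water, and in some cases small uncharged solutes, cross membranes. Plasma membrane intrinsic proteins (PIPs) sit at the cell surface, where PIP1 and PIP2 proteins assemble together and carry much of the water flow across root and leaf tissue. Tonoplast intrinsic proteins (TIPs) sit in the membrane of the vacuole, and proteins like soybean nodulin 26 (NIPs) include channels for glycerol, boric acid and other solutes. Transcript level is only one of their controls, beside phosphorylation, gating and movement to and from the membrane.

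The study set wild-type Col-0 plants beside Ri17, a single line in the Col-0 background in which RNA interference targets *JAV1*, a repressor of jasmonate-induced defence. All plants were 21 days old, and 10 arrays cover 5 conditions in both genotypes, 1 array apiece. The conditions were no treatment, 100 µM methyl jasmonate (MeJA) for 1 h or for 4 h, and 30 min or 60 min after 4 rosette leaves had been crushed with forceps, with about 30% of each leaf damaged. No group had a repeat, the MeJA and wounding comparisons share the same pair of untreated arrays, and a medium-only control for MeJA is not among the arrays. The labels name leaves as the tissue of every array, while the MeJA plants are described as seedlings raised in MS medium. Expression of *JAV1* was not analysed here.

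Values are signals, the linear brightness of a probe set after each array had been scaled to a common trimmed mean of 500.1. A treatment effect is a log2 difference ± standard error from limma, the mean of the Col-0 difference and the Ri17 difference. Its spread is what an additive model of genotype and condition leaves over on 10 arrays, so real differences in response between the genotypes count in it as noise. A change is called at an adjusted p under 0.05 (Benjamini-Hochberg over the 15382 probe sets with a Present call on 2 arrays or more). Between 12912 and 13846 probe sets were Present on an array, and median signals ran from 121.5 to 133.4.

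Of the 27 aquaporin probe sets, 16 were Present on at least 2 arrays, 13 of them on all 10, and these 16 were tested. They take in all 5 PIP1 probe sets, both of PIP2, 1 of the 3 other PIPs, 4 of 8 TIPs, 1 of 3 nodulin-26-like proteins and 3 of the 6 with no group. Of the other 11, 10 were Absent on every array and 1, the nodulin-26-like 254971_at, was Present on 1. Among those Absent on every array was *TIP3;1* (alpha-TIP), a vacuolar channel known from seeds, with signals from 2.6 to 27.6. *AT2G16835*, described as nearly identical to a PIP, ran from 3.3 to 35.8.

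After treatment the aquaporin transcripts that changed against untreated plants were lower, and none was called higher. At 1 h of MeJA 4 of 16 were lower, where 15.8% of all 15382 tested probe sets were lower and 15.7% higher. The count reached 8 of 16 at 4 h of MeJA, beside 18.7% lower and 18.8% higher among all. At 30 min of wounding 3 of 16 were lower, beside 10.5% lower and 9.63% higher, and at 60 min again 3 of 16, beside 16.1% lower and 12.1% higher. The median difference of the 16 was -0.17, -0.69, -0.23 and -0.35 in that order, while that of all tested probe sets was 0.01, 0.00, -0.08 and -0.14. The Col-0 and Ri17 differences had the same sign for 11, 15, 11 and 7 of the 16. How many of all probe sets had the same sign was not counted. At 60 min of wounding some of the unlike signs came from differences near 0, such as 0.02 for *PIP2A* and 0.01 for 254239_at in Col-0. They do not show opposite responses, but the median at 60 min need not hold in each genotype. At 60 min the share lower, 18.8%, was close to that of all probe sets. At 1 h of MeJA it was 25.0% and at 30 min of wounding 18.8%. With only 16 probe sets, whether these shares exceed those of all was not tested. The shares of all were not matched for brightness, while most of the 16 were bright. At an unadjusted p under 0.05, 5, 9, 6 and 4 of the 16 differed, 0 of them higher. Of all probe sets 21.3%, 23.2%, 18.6% and 23.5% were lower by that measure in the same order, and 21.7%, 23.8%, 14.4% and 15.7% higher. The plot of fitted effects shows how unevenly the changes fell over the family.

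Some of these counts rest on single arrays. The count of 4 at 1 h of MeJA became 1 when its own Col-0 array or the untreated Ri17 array was left out, and 2 without its own Ri17 array, either array at 4 h of MeJA or either at 30 min of wounding. The count of 3 at 30 min of wounding was 1 without the untreated Ri17 array and 0 without the wounded Ri17 array. At 60 min it was 1 without the wounded Ri17 array and 5 without the wounded Col-0 array.

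**Figure D1:**
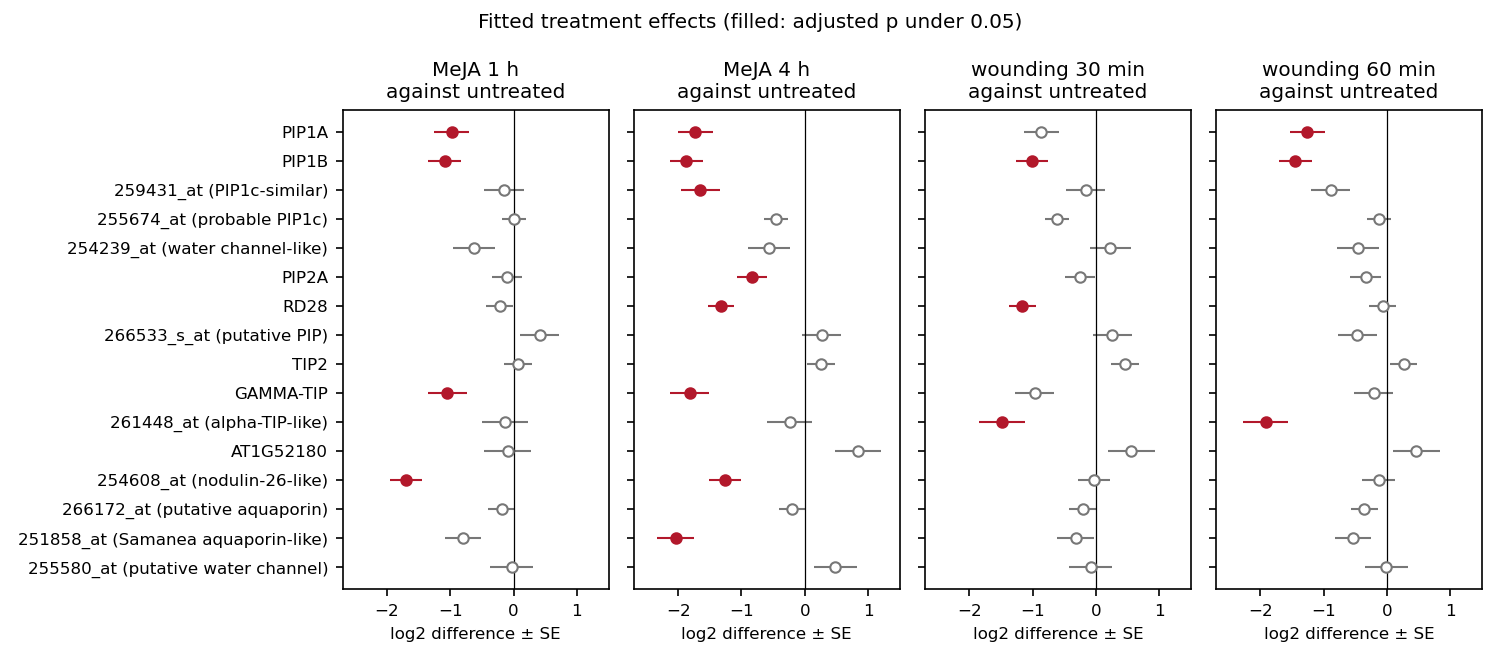
Fitted log2 difference from untreated (horizontal axis) for the 16 tested aquaporin probe sets (vertical axis) in 4 comparisons, with bars of 1 standard error and filled points where the adjusted p was under 0.05. The filled points are 4, 8, 3 and 3 in number, and each lies to the left of 0.

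*PIP1A* and *PIP1B*, both plasma membrane water channel genes of the PIP1 group, fell after MeJA and after 60 min of wounding. *PIP1A* gave 15026.3 in Col-0 and 14986.4 in Ri17 without treatment, 8006.7 and 7182.8 after 1 h of MeJA, and 4871.4 and 4201.5 after 4 h. After wounding it gave 8234.0 and 8262.5 at 30 min and 9003.1 and 4335.0 at 60 min. The untreated pair lay above all 8 treated arrays. The fitted change was -0.98 ± 0.28 (adjusted p = 0.0342, limma) at 1 h of MeJA, -1.73 ± 0.28 (adjusted p = 0.00311) at 4 h and -1.26 ± 0.28 (adjusted p = 0.0144) at 60 min of wounding, while 30 min gave -0.86 ± 0.28 and did not pass (adjusted p = 0.0730). The call at 1 h was lost without any 1 of the untreated, MeJA or 30 min arrays, 8 in all (-0.81 without the untreated Ri17 array, the smallest, and adjusted p up to 0.174). That at 60 min was lost without the untreated Ri17 array (-1.09) or the wounded one (-0.78).

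*PIP1B* behaved alike in direction, and its fall was called in each of the 4 comparisons with untreated plants. Its signals were 20796.2 in Col-0 and 20293.0 in Ri17 without treatment, 9778.3 and 9535.1 after 1 h of MeJA, and 6606.4 and 4813.0 after 4 h. Wounding gave 12095.7 and 8566.4 at 30 min and 10515.2 and 5349.9 at 60 min. No treated array reached either untreated one. The change was -1.09 ± 0.26 (adjusted p = 0.0176) at 1 h and -1.87 ± 0.26 (adjusted p = 0.00159) at 4 h of MeJA. For wounding it was -1.01 ± 0.26 (adjusted p = 0.0328) at 30 min and -1.45 ± 0.26 (adjusted p = 0.00581) at 60 min. The 30 min call was lost without any 1 of the untreated, MeJA or 30 min arrays (-0.78 without the untreated Ri17 array, adjusted p up to 0.167), and the 1 h call without that time's Col-0 array or the untreated Ri17 array (-0.86 each).

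**Figure D2:**
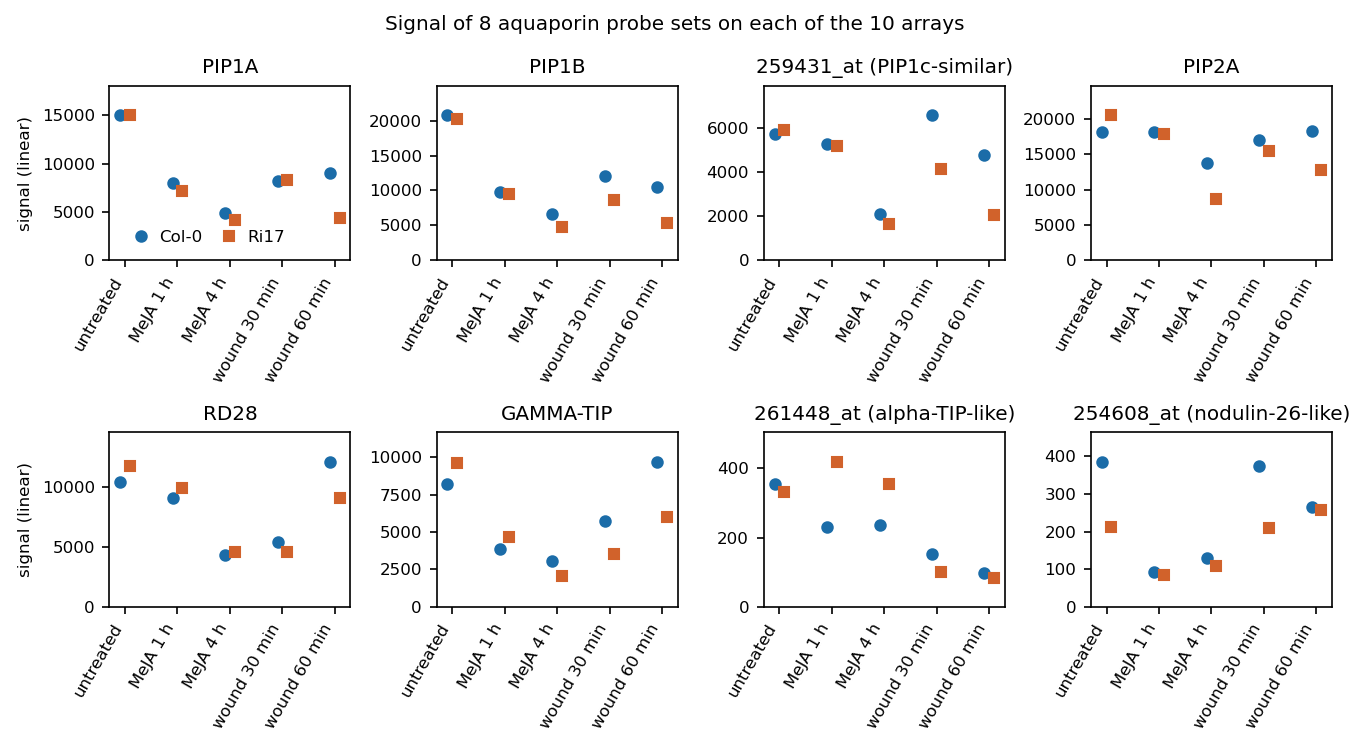
Signal on a linear scale from 0 (vertical axis) of 8 aquaporin probe sets on each of the 10 arrays, by condition (horizontal axis), with circles for Col-0 and squares for Ri17, 1 array each. *PIP1A* and *PIP1B* stand highest on the untreated arrays, *RD28* is low at 4 h of MeJA and 30 min of wounding, and 261448_at is lowest after wounding.

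The other PIP1 probe sets, all described through PIP1c, did not move as one. For 259431_at, described as similar to PIP1c, the untreated arrays gave 5714.5 in Col-0 and 5906.9 in Ri17 and those at 1 h of MeJA 5280.4 and 5193.5, against 2087.1 and 1651.6 at 4 h. Both 4 h arrays lay below the untreated and 1 h arrays, and the change from untreated at 4 h was -1.65 ± 0.31 (adjusted p = 0.00620), which did not pass once the 4 h Col-0 array was left out (-1.58, adjusted p = 0.0527). After wounding its signals were 6577.6 and 4118.0 at 30 min and 4758.0 and 2066.7 at 60 min, with fitted differences of -0.16 and -0.89 (adjusted p = 0.0755) that did not pass. Probe set 255674_at, a probable PIP1c, ran from 4602.9 to 8023.2 over the 10 arrays. Probe set 254239_at, called water channel-like, ran from 1826.3 to 6478.3. Neither passed in any comparison with untreated plants, with differences between -0.62 and 0.23.

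Both probe sets whose descriptions place them in the PIP2 group fell at 4 h of MeJA, and 1 of them at 30 min of wounding. Whether any probe set with no group stated also belongs to PIP2 is not given, so this does not speak for PIP2 as a whole. *RD28*, the water-channel gene PIP2C first known from drought-stressed plants, had signals of 10402.4 in Col-0 and 11792.2 in Ri17 untreated, 9099.9 and 9900.9 at 1 h of MeJA and 4312.8 and 4586.4 at 4 h. Wounded leaves gave 5384.9 and 4555.6 at 30 min, and 12144.6 and 9112.4 at 60 min. Thus the 4 arrays at 4 h of MeJA and 30 min of wounding lay below the other 6. Against untreated the difference was -1.32 ± 0.21 (adjusted p = 0.00279) at 4 h of MeJA and -1.16 ± 0.21 (adjusted p = 0.00866) at 30 min of wounding, where it was lost without the wounded Ri17 array (-1.04, adjusted p = 0.0724). It was -0.22 at 1 h of MeJA and -0.07 at 60 min of wounding, and neither passed. The array marks this probe set as one that can be shared by several transcripts, so its signal may not come from *RD28* alone.

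*PIP2A*, the other water channel gene described as PIP2, gave 18116.9 in Col-0 and 20534.3 in Ri17 untreated, 18193.9 and 17846.6 at 1 h of MeJA, and 13713.6 and 8596.1 at 4 h. Wounding gave 16952.9 and 15460.5 at 30 min and 18314.2 and 12749.6 at 60 min. The Ri17 array at 4 h of MeJA was the lowest of the 10, and the Col-0 array of that time lay above the Ri17 array at 60 min of wounding. The change at 4 h was -0.83 ± 0.24 (adjusted p = 0.0333), made of -0.40 in Col-0 and -1.26 in Ri17. It was lost without the untreated Ri17 array (-0.57), the Ri17 array at 4 h of MeJA (-0.55), either array at 1 h of MeJA or either at 30 min of wounding (-0.83 each, adjusted p = 0.0558 and 0.0563). The plasma membrane protein 266533_s_at, for which no group is stated and which may also be shared by several transcripts, passed in no comparison. It gave 8791.2 in Col-0 and 9772.5 in Ri17 untreated, 13212.3 and 11469.8 at 1 h and 12034.5 and 10409.6 at 4 h of MeJA, and 13512.9 and 9148.6 at 30 min and 10123.6 and 4412.1 at 60 min of wounding. The 4 MeJA arrays lay above the untreated pair, and the Ri17 array at 60 min below all others. Its differences from untreated were 0.41, 0.27, 0.26 and -0.47 for 1 h and 4 h of MeJA and 30 min and 60 min of wounding.

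Among the tonoplast channels *GAMMA-TIP* fell after MeJA, while *TIP2* did not pass in any comparison. *GAMMA-TIP* gave 8181.1 in Col-0 and 9594.4 in Ri17 untreated, 3896.6 and 4673.0 at 1 h of MeJA, and 3049.7 and 2061.6 at 4 h. Wounding gave 5763.7 and 3530.6 at 30 min and 9711.2 and 6009.9 at 60 min. The 4 MeJA arrays lay below both untreated ones, whereas the wounded Col-0 array at 60 min lay above them. The difference from untreated was -1.05 ± 0.31 (adjusted p = 0.0364) at 1 h of MeJA and -1.82 ± 0.31 (adjusted p = 0.00359) at 4 h. Wounding gave -0.97 at 30 min (adjusted p = 0.0655) and -0.21 at 60 min (adjusted p = 0.658). The 1 h call was lost without any of 7 single arrays, that is any 1 of the MeJA or 30 min arrays or the untreated Ri17 array (-0.71 when the 1 h Col-0 array was left out, adjusted p up to 0.240).

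*TIP2*, described as a second gamma-type tonoplast channel, gave 16852.9 in Col-0 and 17305.4 in Ri17 untreated, 18117.8 and 17839.0 at 1 h and 22285.0 and 18454.1 at 4 h of MeJA, and 27176.8 and 20188.0 at 30 min and 25623.8 and 16307.0 at 60 min of wounding. The 2 wounded Col-0 arrays were the highest, and the wounded Ri17 array at 60 min the lowest. Its differences from untreated were 0.07, 0.25, 0.46 and 0.26 for 1 h and 4 h of MeJA and 30 min and 60 min of wounding. Probe set 261448_at, described through a soybean alpha-TIP, differed in pattern from both gamma-type genes. It gave 355.5 in Col-0 and 330.8 in Ri17 untreated, 230.0 and 419.4 at 1 h of MeJA and 236.2 and 355.2 at 4 h, against 152.5 and 99.1 at 30 min and 98.9 and 82.5 at 60 min of wounding. All 4 wounded arrays lay below the 6 others. The change was -1.48 ± 0.36 (adjusted p = 0.0280) at 30 min and -1.92 ± 0.36 (adjusted p = 0.00730) at 60 min. The first call was lost without either untreated array (-1.36 without Col-0, -1.60 without Ri17) or the wounded Ri17 array (-1.03), and the second without the wounded Ri17 array (-1.70, adjusted p = 0.0579). *AT1G52180*, described through a delta-type tonoplast protein, stayed between 53.5 and 138.9 and passed in no comparison.

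The only tested nodulin-26-like probe set, 254608_at, was low on the MeJA arrays. Its signals were 385.8 in Col-0 and 210.8 in Ri17 untreated, 91.2 and 83.9 at 1 h of MeJA and 128.6 and 109.7 at 4 h, but 373.4 and 208.6 at 30 min and 263.9 and 256.8 at 60 min of wounding. The 4 MeJA arrays lay below the 6 others. The change from untreated was -1.70 ± 0.26 (adjusted p = 0.00323) at 1 h and -1.26 ± 0.26 (adjusted p = 0.00913) at 4 h, and the latter did not pass when the untreated (-0.98) or the 4 h (-1.14) Col-0 array was left out. At 30 min and 60 min of wounding it differed by -0.03 and -0.13.

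Of the 3 tested probe sets with no group, 251858_at, described through an aquaporin of the tree *Samanea saman*, fell at 4 h of MeJA. It gave 315.0 in Col-0 and 426.2 in Ri17 untreated, 185.8 and 238.8 at 1 h of MeJA, 110.7 and 71.6 at 4 h, 321.8 and 267.6 at 30 min and 287.5 and 221.9 at 60 min of wounding. It was called Present on the untreated and wounded arrays and on none of the 4 MeJA arrays. At 4 h it was 4.12-fold lower (-2.04 ± 0.29, adjusted p = 0.00186), a size that is uncertain because both arrays on the lower side were Absent. The putative aquaporin 266172_at gave 11087.1 in Col-0 and 11043.2 in Ri17 untreated, 9555.2 and 9827.7 at 1 h and 10298.3 and 9030.9 at 4 h of MeJA, and 11254.7 and 8158.4 at 30 min and 10289.5 and 7207.8 at 60 min of wounding. Its lowest signals were those of the wounded Ri17 arrays, and its differences from untreated, -0.19, -0.20, -0.21 and -0.36 in the same order, did not pass. The putative water channel 255580_at ran from 50.0 to 138.1 and did not pass either.

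**Figure D3:**
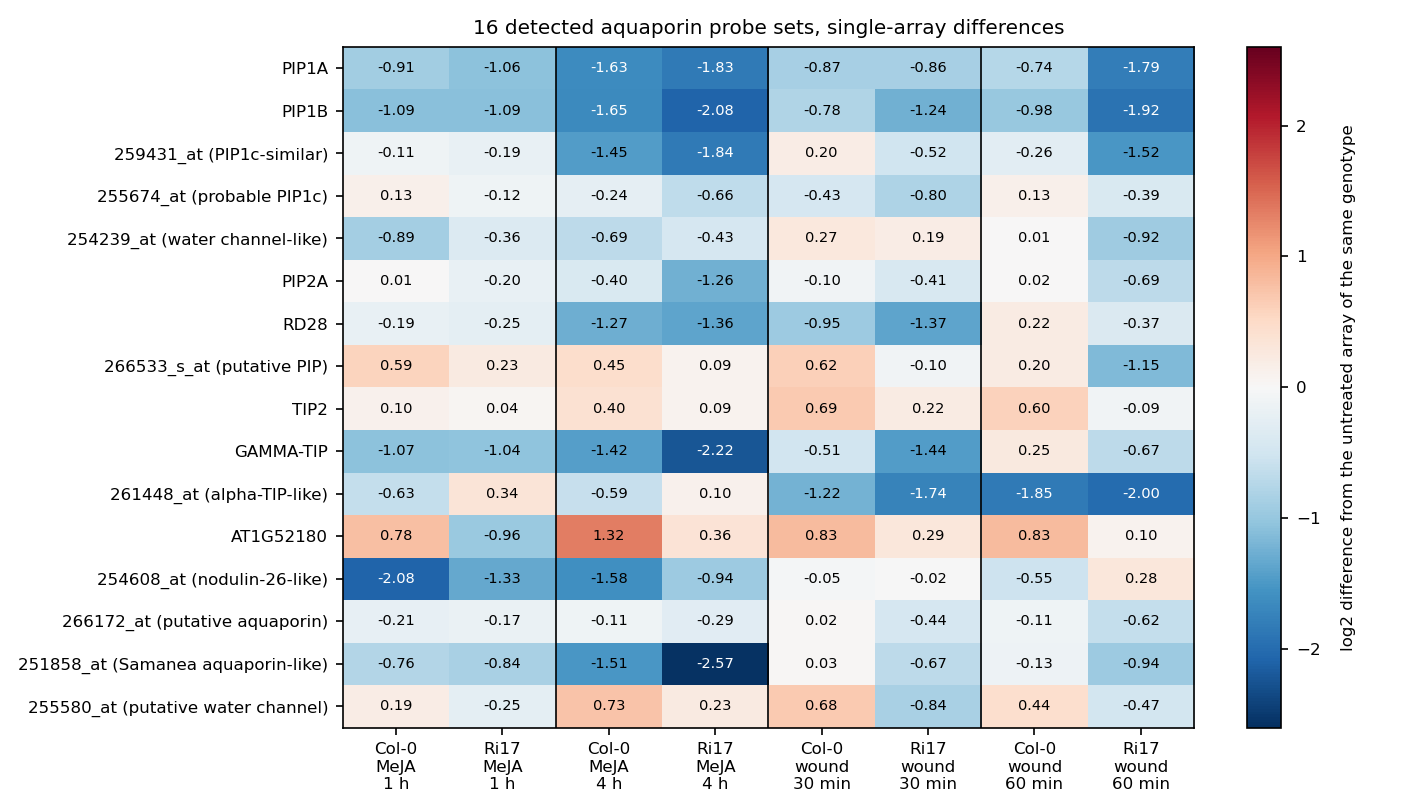
Log2 difference of each treated array from the untreated array of the same genotype (columns) for the 16 tested aquaporin probe sets (rows), blue where lower and red where higher. *PIP1A* and *PIP1B* are below 0 in all 8 columns, 254608_at reaches -2.08 and -1.33 at 1 h of MeJA, and 266533_s_at and *TIP2* stand above 0 in most columns.

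The times of each treatment were also compared directly. From 1 h to 4 h of MeJA 3 of 16 aquaporin probe sets were lower at the later time, where 7.93% of all were lower and 6.69% higher. They were 259431_at (-1.50 ± 0.31, adjusted p = 0.0218), *RD28* (-1.09 ± 0.21, adjusted p = 0.0162) and 251858_at (-1.24 ± 0.29, adjusted p = 0.0323), the last with no Present call at either time. None of the 3 was called without any 1 of the 4 MeJA arrays, so that the count was then 0. Across those arrays 259431_at ranged from -1.24 to -1.76, *RD28* from -0.98 to -1.20 and 251858_at from -0.91 to -1.58, and 251858_at was lost also without either array at 30 min of wounding (-1.24, adjusted p = 0.0618). From 30 min to 60 min of wounding *RD28* alone among the 16 passed, higher by 1.09 ± 0.21 (adjusted p = 0.0387), where 2.67% of all were higher and 1.72% lower. That call was lost, and the count was 0, without any of the 8 treated arrays (0.86 without the Col-0 array at 60 min, the smallest, and adjusted p up to 0.180).

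Wounding and MeJA could be set against each other directly at about the same time, 60 min and 1 h. The difference leaves out the untreated arrays, while its standard error draws on all 10 arrays. The MeJA plants are described as seedlings raised in MS medium, and MeJA cannot be told apart here from that or from its set of arrays. Here 1 of 16 was higher after wounding and 1 lower, beside 14.2% higher and 20.3% lower among all tested probe sets. The nodulin-26-like 254608_at was higher after wounding by 1.57 ± 0.26 (adjusted p = 0.00472), with 263.9 and 256.8 against 91.2 and 83.9. The alpha-TIP-like 261448_at was lower (-1.78 ± 0.36, adjusted p = 0.00963), with 98.9 and 82.5 against 230.0 and 419.4. The latter call was lost, leaving a count of 1, when the Ri17 array of either treatment was left out (-1.30 for MeJA, -1.56 for wounding), and the count was 5 without the Col-0 array at 60 min of wounding. *PIP1A* and *PIP1B* did not pass in this comparison.

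Averaged over the 5 conditions, no aquaporin probe set differed between Ri17 and Col-0 past the threshold in limma, 0 of 16 beside 0.0% of all 15382, and 4 of 16 were lower in Ri17 at an unadjusted p under 0.05 and 0 higher, beside 3.25% and 2.93% of all. The differences were below 0 for 14 of 16, with a median of -0.28, while the median of all tested probe sets was 0.0. How many of all probe sets lay below 0 was not counted, here or within single conditions. The 16 were read from the same arrays, so their signs are not independent. The largest difference was -0.67 ± 0.21 for the water channel-like 254239_at (adjusted p = 0.799). This model gives 1 genotype difference for the 5 conditions, so the conditions were also read singly, as pairs of single arrays with no error and no test.

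The aquaporin signals of both genotypes lay close together without treatment and after 1 h of MeJA. Most were lower in Ri17 at 4 h of MeJA and after wounding. The median log2 difference, Ri17 minus Col-0, was 0.08 untreated, -0.03 at 1 h and -0.25 at 4 h of MeJA, -0.48 at 30 min and -0.59 at 60 min of wounding, while that of all tested probe sets stayed between -0.04 and 0.03. The number of probe sets lower in Ri17 was 6, 11, 14, 14 and 15 of 16 in that order. With quantile-normalised arrays the first 2 medians changed sign (-0.03 and 0.05) and the counts became 9 and 6, while the other 3 medians were -0.21, -0.44 and -0.41 with counts of 14, 14 and 15. A log2 difference of at least 1, its higher signal called Present, occurred for none of the 16 untreated, at 1 h or at 4 h of MeJA, where 5.56%, 1.14% and 1.70% of all probe sets differed so in either direction. At 30 min of wounding it held for 1, 255580_at, lower in Ri17 (-1.41, with 50.0 and an Absent call against 133.3), beside 2.23% of all lower in Ri17 and 2.27% higher.

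At 60 min of wounding 4 of the 16 were lower in Ri17 by at least 1, beside 3.29% of all probe sets lower and 4.54% higher. These were 254239_at (1826.3 in Ri17 and 5401.1 in Col-0, -1.56), 259431_at (2066.7 and 4758.0, -1.20), 266533_s_at (4412.1 and 10123.6, -1.20) and *PIP1A* (4335.0 and 9003.1, -1.05), all plasma membrane proteins. In the authors' deposited table, whose change calls compare the probe pairs of the Ri17 and Col-0 arrays, 10 of the 16 carried the call decrease at 60 min and none the call increase. That table gave a decrease to 12.6% and an increase to 13.9% of all tested probe sets at this time. Its decreases among the 16 numbered 1 untreated, 0 at 1 h and 4 at 4 h of MeJA, and 4 at 30 min of wounding, beside 13.6%, 3.17%, 4.93% and 5.81% of all, and its increases 1, 1, 0 and 0, beside 12.4%, 6.12%, 7.55% and 10.6% of all. The deposited log2 ratios of the 60 min decreases ran from -0.4 (*RD28*) to -1.3 (254239_at). Most of the 16 lay between percentiles 95.8 (254239_at) and 99.8 (*TIP2*) of mean signal among all probe sets. The shares of all were not matched for brightness.

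**Figure D4:**
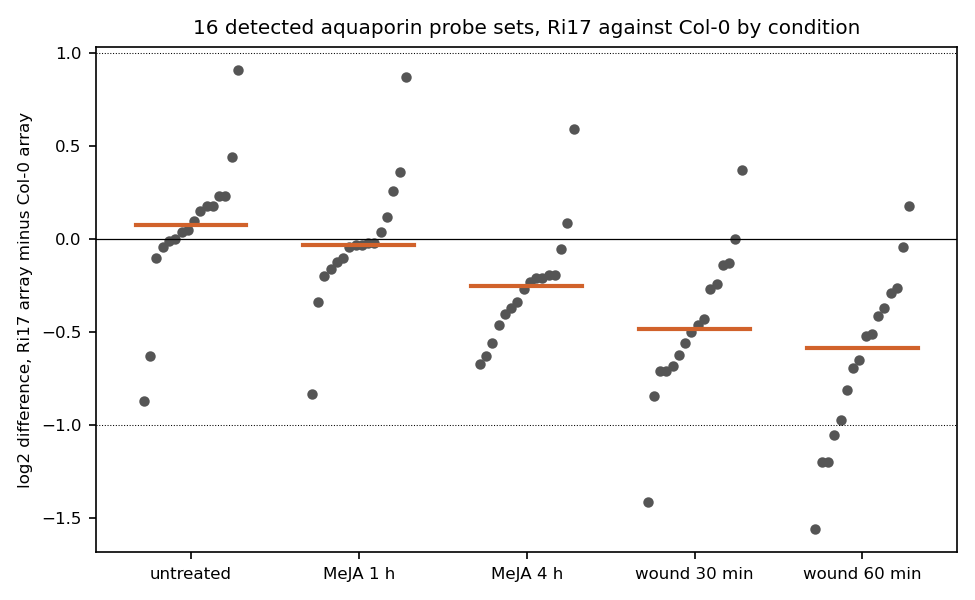
Log2 difference of the Ri17 array from the Col-0 array (vertical axis) for the 16 tested aquaporin probe sets (points, sorted by size) in each condition (horizontal axis), with the median as a bar and dotted lines at a difference of 1 either way. The median lies at 0.08 without treatment and at -0.59 at 60 min of wounding, where 15 of the 16 points lie below 0.

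Genes that work beside aquaporins were read from lists of proton pumps, regulators of PIP traffic, and potassium or other channels of turgor. Few of their genes had a probe set that could be named, so most of each list was not analysed here. Of the PIP regulators, 2 of 10 were tested. *RMA1*, a ubiquitin ligase of the endoplasmic reticulum linked to the turnover of PIP2 proteins, was higher in each comparison with untreated plants, by 2.17 ± 0.38 at 1 h of MeJA (adjusted p = 0.00547), 3.72 ± 0.38 at 4 h (adjusted p = 0.000479), 1.57 ± 0.38 at 30 min of wounding (adjusted p = 0.0281) and 1.83 ± 0.38 at 60 min (adjusted p = 0.0115). Its signals rose from 86.1 in Col-0 and 69.5 in Ri17 untreated to 845.2 and 1231.2 at 4 h of MeJA. *QSK1*, a receptor-like kinase known to act with SIRK1, a kinase that phosphorylates aquaporins, was higher by 1.12 ± 0.28 at 1 h of MeJA (adjusted p = 0.0228), 1.31 ± 0.28 at 30 min (adjusted p = 0.0183) and 2.37 ± 0.28 at 60 min of wounding (adjusted p = 0.00107), with -0.27 at 4 h of MeJA (adjusted p = 0.502).

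Of the turgor channels 4 of 10 were tested, and *AKT2*, a potassium channel of the phloem, fell in each of the 4 comparisons, with differences of -1.77, -1.86, -1.45 and -2.51 (adjusted p = 0.000886, 0.000572, 0.00280 and 0.000174). Its signals were 1425.1 and 1522.7 untreated and between 220.4 and 545.9 on the 8 treated arrays. *KAT2*, a potassium channel of guard cells, was higher at 1 h of MeJA by 1.02 ± 0.32 (adjusted p = 0.0499), with 83.4 and 114.1 against 38.5, called Absent, and 60.2 untreated. At 4 h of MeJA *KAT1*, a guard cell potassium channel, fell by 0.85 ± 0.28 (adjusted p = 0.0460) and *TMT1*, a vacuolar sugar transporter, was higher by 1.54 ± 0.33 (adjusted p = 0.00957). Of 20 proton pump genes 3 were tested, and 0 passed in limma in any comparison with untreated plants, with 1 at an unadjusted p under 0.05 at 1 h of MeJA and 0 in the other 3 comparisons. Of these 3, *AHA10* ran from 6.5 to 40.4, mostly under the floor of 37.7 to which weak signals were set. Its test could therefore hardly show a change.

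Single marker transcripts of other cell types, and the array controls, also differed between treatments. Of 18 root marker genes 4 had a named probe set, and *EXPA7* and *PRX35*, both genes of roots, were Absent on every array (4.2 to 44.7 and 1.1 to 3.0). *PYK10*, a glucosidase gene of roots and seedlings, gave 95.3 and 27.3 untreated, between 22.0 and 243.8 after wounding, and 901.9, 1157.9, 2275.1 and 2457.9 on the MeJA arrays. *SHR*, a regulator of root tissue layers, passed as lower in the 4 comparisons with untreated plants (adjusted p from 0.0125 to 0.0310), but it was Present on the untreated arrays alone, with 90.0 and 136.3, and Absent on all 8 treated arrays, with 13.1 to 67.1. The summed signal of the 4 root markers was 205.5 and 208.4 untreated, 80.9 to 297.9 after wounding and 960.5 to 2508.2 after MeJA, where most of it was *PYK10*. The leaf mesophyll gene *SBPASE*, the only one of its list of 8 with a named probe set, fell by 1.76 at 4 h of MeJA (adjusted p = 0.00208) and by 1.15 at 60 min of wounding (adjusted p = 0.0156). Of 3 tested vascular genes *XCP1* alone passed against untreated plants, as lower at 1 h and 4 h of MeJA (adjusted p = 0.0106 and 0.00174). It was Absent on the 4 MeJA arrays, with 28.2 to 66.5, and gave 123.8, also Absent, in Col-0 and 181.2 in Ri17 untreated. Of 3 tested guard cell and epidermis genes *CUT1*, an enzyme gene of wax synthesis, alone passed against untreated plants, with -1.76 and -0.95 at 1 h and 4 h of MeJA (adjusted p = 0.00560 and 0.0498). The part of these markers in the aquaporin results was not tested, and in whole tissue fewer cells of a type and less RNA per cell cannot be told apart. The 4 MeJA arrays also did not overlap with the 6 others in signal in 23 of 46 bacterial control probe sets. The same count was not made over all probe sets, so whether this share is unusual was not tested. MeJA and this set of arrays cannot be told apart.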

How the data were processed

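RNA was measured on 10 Affymetrix ATH1 arrays. The signal intensities deposited by the authors were made with GCOS, per the submitters' processing notes, and are linear. The tables that set Ri17 against Col-0 also hold deposited detection and change calls, a deposited log2 ratio and a deposited p-value for each, per the file headers. Signals under 37.7, the 75th percentile of Absent signals, were set to that floor before log2 was taken. Probe sets Present on at least 2 arrays (15382) were fitted together with limma 3.58.1 in R 4.3.3 (genotype and condition, additive, 4 residual degrees of freedom, two-sided). The limma step was tested on simulated data with independent noise and no differences in response between the genotypes. Counts were made with pandas 2.3.3 and NumPy 2.4.6 under Python 3.11.15, and plots with Matplotlib 3.10.9. With no repeats, p-values measure only the spread between these arrays, whose number limits the precision. Alternatives covered scaling, floor, filter, variance model, left-out arrays and subsets of conditions, and calls under them were read for the aquaporin probe sets only. Probe sets were named from the supplied annotation table (2) or from their deposited description matched to the TAIR10.1 gene table (7), and the array's genome build is not given in the sources used here. Members called in a comparison with untreated plants, or among the 6 brightest, were described in full, the others by range. The aquaporin probe sets, the gene lists and the tests were chosen with earlier results of these data known.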

Additional observations from a re-analysis of the deposited data

Results flagged for a closer look

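Between 1 h and 4 h of MeJA 259431_at changed by -1.50, *RD28* by -1.09 and 251858_at by -1.24, and between 30 min and 60 min of wounding *RD28* changed by 1.09, each past the threshold for a difference between times. In 2 probe sets, both weak, the genotypes differed from untreated in opposite directions by at least 0.5 each. This was not tested, because each genotype had 1 array per condition. How many of all probe sets did so was not counted. At 1 h of MeJA *AT1G52180* was higher by 0.78 in Col-0 and lower by 0.96 in Ri17 (0.78 and -0.96, a response in Ri17 of -1.74 relative to Col-0), with signals between 53.5 and 104.3. At 30 min of wounding 255580_at differed by 0.68 in Col-0 and -0.84 in Ri17 (-1.52 relative to Col-0), and 3 of its 4 arrays were called Absent.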

How the results depend on the processing

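Of the 24 called differences, 8 were called under every alternative: *PIP1A*, *PIP1B*, *RD28*, *GAMMA-TIP* and 251858_at at 4 h of MeJA, 254608_at at 1 h of MeJA and between 60 min of wounding and 1 h of MeJA, and *PIP1B* at 60 min of wounding. Of the others, 16 lost the call without at least 1 array and 12 under another setting, and 0 reversed. With no detection filter, which adjusts over all probe sets, the counts were 1 at 1 h of MeJA, 1 at 30 min of wounding, 1 between the MeJA times, 0 between the wounding times and 1 between wounding and MeJA. With the floor at 2 times its value they were 2 at 1 h of MeJA, 0 between the wounding times and 0 for Ri17 against Col-0 at 30 min. At 30 min of wounding the count was 5 with quantile normalisation, 5 with an intensity trend and 1 with untreated and wounded arrays only, which also gave 0 between the wounding times; the cause was not tested. Aligning arrays on their medians moved the median of all probe sets at 60 min of wounding from -0.14 to -0.03 and that of the 16 from -0.35 to -0.24. Without each array in turn the counts were 1 to 4 and 6 to 8 at 1 h and 4 h of MeJA, 0 to 4 and 1 to 5 at 30 min and 60 min of wounding, 0 to 4 and 0 to 1 between times, 1 to 5 between wounding and MeJA, and 0 throughout for Ri17 against Col-0. No paired analysis was possible because GEO's labels number no replicates and each group had 1 array. The deposited column names give the same number to the untreated and wounded arrays of a genotype and other numbers to its MeJA arrays, and the additive model already compares arrays within a genotype.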

Other observations

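Probe sets of the same protein family whose descriptions use other words fell outside the selection. The delta-type tonoplast protein 258054_at, described as an integral rather than intrinsic protein, gave 11561.7 in Col-0 and 16415.7 in Ri17 untreated and 17148.0 and 8666.0 at 60 min of wounding, and passed in no comparison with untreated plants. Probe set 251661_at, described through nodulin 26, fell in each of the 4, with log2 differences of -1.98 ± 0.23 and -1.35 ± 0.23 at 1 h and 4 h of MeJA (adjusted p = 0.00103 and 0.00403, limma) and of -1.79 ± 0.23 and -1.93 ± 0.23 at 30 min and 60 min of wounding (adjusted p = 0.00217 and 0.00108).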
